A study of Zea mays with 12 samples.

Results

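The 200 gene models described here had RNA in unpollinated kernels of the maize inbred line Mo17, almost none in unpollinated kernels of the inbred line B73, and RNA in the endosperm of the crosses between the lines. They were chosen from 108342 models on raw read counts, by 3 conditions: at least 200 counts in the Mo17 kernel library, a B73 kernel count of at most 1% of the Mo17 count, and a mean of at least 100 counts over the 6 endosperm libraries. They are called the Mo17-mother-only models below. The name holds for the kernel before pollination, where the choice was made. It does not say which allele the endosperm reads came from, since the counts do not separate alleles.

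The study sequenced RNA from reciprocal crosses of B73 and Mo17, with the mother written first. BxM is B73 pollinated by Mo17, and MxB is Mo17 pollinated by B73. Whole kernels were taken before pollination (0 days after pollination, DAP) and at 3 and 5 DAP, and endosperm was taken at 7, 10 and 15 DAP. There were 12 libraries, 1 per cross and age, so every ratio at 1 age compares a pair of libraries and has no replicate check. The series title names imprinted genes and maternal control of nutrient allocation as the study's subject. The labels speak of replicate material for RNA extraction, but give no sign of whether it was pooled.

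A kernel before pollination is wholly tissue of the mother plant, and young kernels are still mostly maternal tissue such as ovary wall and nucellus. The endosperm arises when a sperm nucleus joins both polar nuclei of the central cell, and it therefore holds 2 maternal and 1 paternal genome copies. A transcript made in endosperm from Mo17 copies alone, at an equal rate per copy, would have 1 active copy in BxM and 2 in MxB, a BxM to MxB ratio of 0.5 or a log2 ratio of -1. An imprinted gene, which is read mainly from the copy of 1 parent, would depart from that ratio.

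Among the models, 117 had no count in B73 kernels, and the highest B73 count was 33. Their counts in Mo17 kernels ran from 210 to 35876, with a median of 909. The first 2 conditions alone gave 625 models, of which 425 had an endosperm mean below 100. Close to the limits, GRMZM2G126053 was taken with 210 counts in Mo17 kernels and GRMZM2G060718 was left out with 199. GRMZM2G359298 was taken with 3 B73 counts beside 310, or 0.968%, and GRMZM2G466265 was left out with 42 beside 4171, or 1.01%. GRMZM2G019510 was taken with an endosperm mean of 100.2 counts and GRMZM5G830483 was left out with 99.8. The mirror rule, with B73 and Mo17 exchanged, gave 217 B73-mother-only models, used below for comparison.

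Few of the models carry a name. In RefSeq's gene table for assembly Zm-B73-REFERENCE-NAM-5.0, 12 of the 200 identifiers were found, against 18731 of all 108342. Of the 12, 7 were listed as protein coding and 5 as pseudogenes or transcribed pseudogenes. GRMZM2G325653 is mlo6, named for barley Mlo, a membrane protein whose loss gives resistance to powdery mildew. GRMZM2G049378 is MYBR115, whose symbol places it among the MYB-related transcription factors. Some models may share reads: 53 of the 200 had counts near-proportional to those of another model of the set in all 12 libraries. Near-proportional means that, after scaling 1 model to the other's sum, counts above 60 differed by at most 25% and smaller counts by at most 20. Counting such models once left 170 profiles. The counts of such models may not be independent of each other.

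Library totals ran from 35401314 to 70930121 counts, lowest at 15 DAP. Levels are given as CPM, counts scaled to the library total times its TMM factor. Where no read was counted, as many as 3 counts remain possible from counting error alone, or 0.0304 to 0.143 CPM on that scale. Of the endosperm markers, 14 models summed to 55.2 and 68.2 CPM in BxM and MxB kernels at 0 DAP. At 7 DAP they summed to 13962 and 8247 CPM and at 15 DAP to 46202 and 36169 CPM. The 7 DAP sums were mostly fl3, at 8503 and 5274 CPM, and single markers differed both ways between the crosses. At 7 DAP mn1 stood at 1375 (BxM) and 245 (MxB) CPM, but sh2 at 10.8 and 216 and bt1 at 14.8 and 174. Their part in the 7 DAP ratios was not tested. Ovule MADS-box markers, which mark maternal flower tissue, summed over 7 models to 838 (BxM) and 716 (MxB) CPM at 0 DAP and to 11.9 and 10.3 CPM at 7 DAP. They stood at 148 and 250 CPM at 10 DAP and at 2.53 and 2.47 CPM at 15 DAP. The 10 DAP libraries thus held more ovule marker RNA than the endosperm libraries before and after them. The higher MxB sum at 10 DAP came mostly from zag2 (52.1 in BxM and 98.1 in MxB) and zag3 (12.8 and 69.6). At that age zag1 (13.3 and 13.0) and the zmm2 model GRMZM2G359952 (69.5 and 67.8) were near equal in the crosses. Embryo markers, 5 models, also stood highest at 10 DAP, at 426 CPM in BxM and 220 in MxB.

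In kernels after pollination the models were nearly absent from BxM. Together they had 1256 counts in BxM at 3 DAP against 261909 in MxB, and 4292 against 193709 at 5 DAP. The median model had 0 counts in BxM and 701 in MxB at 3 DAP, and 8 and 554 at 5 DAP. Of the 200, 108 had no BxM count at 3 DAP and 13 had none at 5 DAP. With zeros set at the limit of 3 counts, the median model was 159-fold higher in MxB at 3 DAP and 64.6-fold higher at 5 DAP. BxM counts above 20 were seen in 15 models at 3 DAP and in 44 at 5 DAP. Over both ages edgeR's quasi-likelihood test called 191 of 198 tested models lower in BxM, against 3.64% of all 40879 models tested. Many of the models entered that test through their MxB counts, and the fit has 1 residual degree of freedom, so the count is a description. Scaled to library totals alone it was 105, while calls over all models in either direction went from 3139 to 898.

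The BxM counts at 3 DAP were unevenly spread over the models. GRMZM2G389903 had 283 of them and GRMZM2G359298 had 140, and without this pair the sum was 833. GRMZM2G389903 went from 2 counts at 0 DAP to 283, 364, 475, 517 and 542 in BxM, and from 379 to 1069, 1603, 930, 815 and 910 in MxB. Its kernel difference, a log2 change of -1.90, had an edgeR adjusted p of 0.068. It was therefore already present in BxM kernels at 3 DAP, before endosperm was sampled alone. The pair was chosen after its values were seen, though GRMZM2G359298 is also the model nearest the 1% limit.

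From 5 DAP kernels to 7 DAP endosperm the models appeared in BxM. Their summed BxM counts were 86996 at 7 DAP, 49548 at 10 DAP and 26808 at 15 DAP, against 167853, 127218 and 67872 in MxB. The median level in BxM was 0.101 CPM at 5 DAP, 3.29 CPM at 7 DAP, 1.93 CPM at 10 DAP and 2.29 CPM at 15 DAP. In MxB it went down slowly over the whole course, from 9.22 CPM at 0 DAP to 8.61, 7.32, 5.74, 4.58 and 4.54 CPM. No model was at 0 in BxM at 7 or 10 DAP, and 4 were at 0 at 15 DAP. Fewer cells with a transcript and less RNA per cell cannot be told apart in these bulk samples, and this step changes tissue and age at once.

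**Figure D1:**
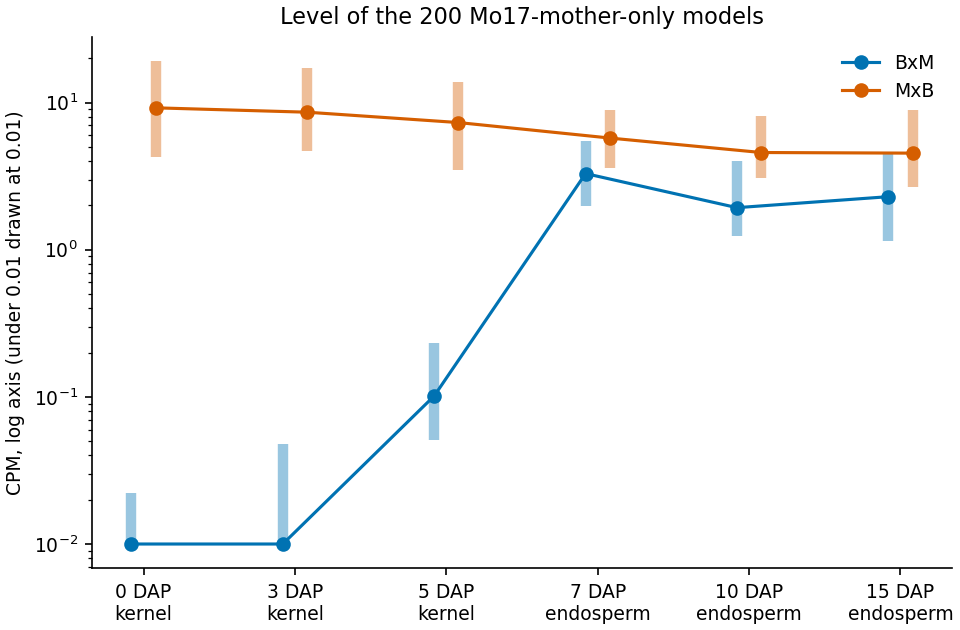
Median level of the 200 Mo17-mother-only models in each library, in CPM on a log axis, with the range from the first to the third quartile as bars and values under 0.01 CPM drawn at 0.01. The BxM median goes from 0.101 CPM in 5 DAP kernels to 3.29 CPM in 7 DAP endosperm, while the MxB median goes from 7.32 to 5.74 CPM.

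The ratio between the crosses moved from near absence in kernels to the vicinity of 1 to 2 in endosperm. The median log2 BxM to MxB ratio was -9.46 at 0 DAP, where the models were chosen on it, and then -8.85 at 3 DAP and -5.96 at 5 DAP. The values at 0 and 3 DAP depend on the 0.5 counts added, since most models had no BxM count there, and the 159-fold difference given above for 3 DAP is the one with zeros at the limit of 3 counts. In endosperm it was -0.91 at 7 DAP, -1.17 at 10 DAP and -1.08 at 15 DAP. Averaged over the 3 endosperm ages it was -1.01, a ratio of 0.497, with quartiles of -1.46 and -0.69. Counting near-proportional models once gave -0.995. Over all 46321 models compared, the median stayed between -0.09 and 0.16 at every age. The B73-mother-only models had medians of 0.99, 1.34 and 1.01 at 7, 10 and 15 DAP, and of 1.08 on average. Among the endosperm ages both sets had the median farthest from equality at 10 DAP, in opposite directions. With library totals alone the order turned for the Mo17-mother-only models, at -1.23 at 10 DAP and -1.30 at 15 DAP. The ovule marker sums of 148 and 250 CPM and the embryo marker sums of 426 and 220 CPM belong to the same pair of libraries, and their part in the 10 DAP ratios was not tested.

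**Figure D2:**
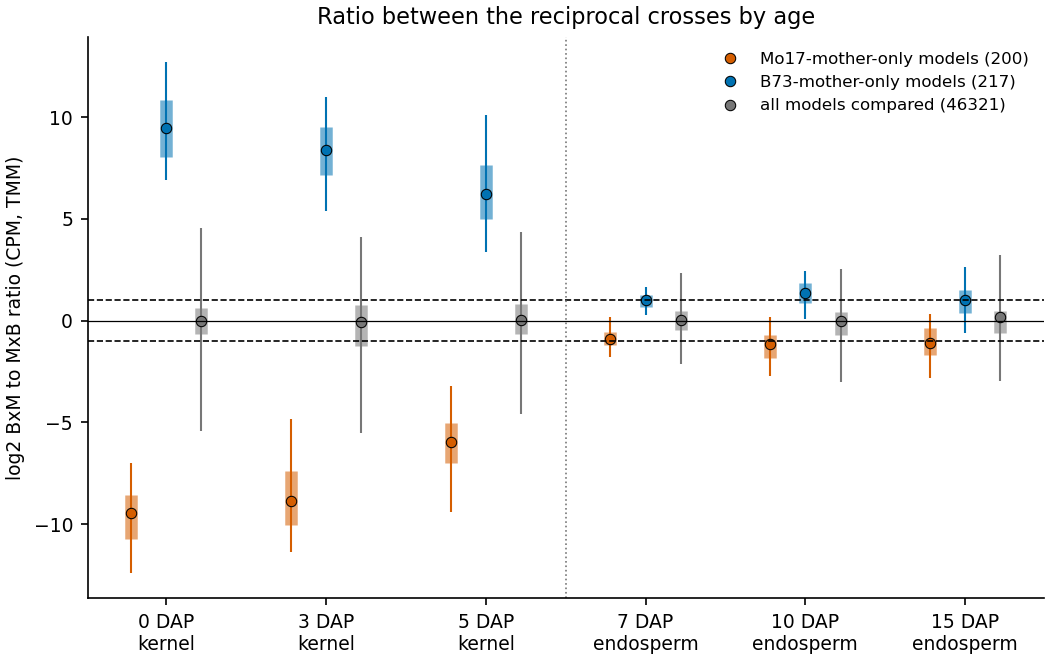
Log2 BxM to MxB ratio of CPM at each age for the Mo17-mother-only models, the B73-mother-only models and all models compared; points are medians, thick bars quartiles and thin bars the range from the 5th to the 95th percentile over models, with dashed lines at -1 and 1. Both chosen sets leave their kernel ratios at 7 DAP and lie around the dashed lines, with medians of -0.91 and 0.99 at 7 DAP and of -1.17 and 1.34 at 10 DAP.

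The change of ratio between kernels and endosperm was tested in 1 fit of the 10 libraries from 3 to 15 DAP, leaving out 0 DAP. edgeR called the BxM share higher in endosperm for 131 of the 200 models and lower for 0, with 0 lower also at an unadjusted p under 0.05 and by DESeq2. All models tested, 44603 in number, had 0.823% called higher. The models were chosen as near absent in B73 kernels and present in endosperm, so this direction was largely set by the choice. The count of 131 is therefore a description. Of the 217 B73-mother-only models, chosen by the mirror rule, 147 were called lower and 0 higher. The median change of the log2 ratio of the 200 was 6.02, against 0.05 over all models. Its size rests on low BxM kernel counts: it was 5.02 and 5.09 without BxM and MxB at 3 DAP, and 8.85 and 8.86 without BxM and MxB at 5 DAP. GRMZM2G137391, for example, had 0 and 3 counts in BxM kernels at 3 and 5 DAP beside 1427 and 1379 in MxB, and 222, 106 and 74 in BxM endosperm beside 439, 233 and 182. Its BxM share was far lower in both kernel pairs than in any endosperm pair, and the log2 ratio rose by 8.89 (SE 0.892, edgeR adjusted p = 0.00677). Over all models tested 795 were called in either direction, but 264 without BxM and 362 without MxB at 15 DAP. The number called among the 200 also depended on the 15 DAP libraries, being 54 without BxM and 76 without MxB at 15 DAP. It was between 96 and 165 without any other single library.

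The number of models close to 1 to 2 differed between ages, and so did the depth of counts. The median model had 217.5 counts in BxM and 383 in MxB at 7 DAP, 94 and 279 at 10 DAP, and 48 and 125 at 15 DAP. The part of counting error in the numbers below was not tested. Within 0.5 of a log2 ratio of -1 lay 129 models at 7 DAP, 94 at 10 DAP and 80 at 15 DAP, and 120 on average over ages. Of all models compared, 14.9% to 17.8% lay there by the same measures. Staying within 0.5 at all 3 ages was seen in 35 models, against 1.06% of all models compared, and staying within 1 in 100 models. The share of all models within 1 is not given here. A ratio below equality at all 3 ages was seen in 153 models and above equality in 1, while 16.6% of all models compared lay below equality at all 3. The standard deviation of a model's log2 ratio over the 3 ages had a median of 0.56, and the models' averages had a standard deviation of 0.71. These values are not on the same scale, since the first is taken over single ages and the second over averages of 3 ages.

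The 95% Clopper-Pearson interval of the ratio, which covers counting error only, held 0.5 for 69 models at 7 DAP, 58 at 10 DAP and 80 at 15 DAP. It lay above 0.5 for 79, 55 and 60 models and below for 52, 87 and 60. At 10 DAP more models lay below than above, and at 7 DAP more lay above. Ratios of the same models at different ages were only loosely related across the 200 models, with a Spearman rho of 0.242 between 7 and 10 DAP, 0.321 between 7 and 15 DAP and 0.484 between 10 and 15 DAP. These are descriptions across models, some of which may share reads, and the pairs of ages share no library. The average endosperm ratio and the MxB level at 3 DAP had a rho of 0.111.

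With age as a term, edgeR called none of the 200 models different between the crosses in endosperm, where 0.0361% of 38795 models were called in either direction. At an unadjusted p under 0.05, 122 were lower in BxM and 0 higher, and the smallest adjusted p was 0.0547. Of all 38795 models, 2101 were lower and 2104 higher at that limit. A value below equality was seen in 191 of 200, against 20304 of 38795. DESeq2 called 56 lower, against 1073 of all 38795 models in either direction. With no filter on low counts edgeR called 49 lower, against 924 of 59474 in either direction. With library totals alone it called 3, against 47 of 38795. Leaving out 1 library gave 43 (BxM) or 38 (MxB) for 7 DAP, 11 or 10 for 10 DAP, and 0 for either of 15 DAP. Over all models tested, 41525 to 42516 in number, these fits called 1447 or 1457, 260 or 288, and 11 or 27 in either direction. A ratio of 2 is near the limit of this fit, which has 2 residual degrees of freedom. On simulated counts it recovered 8% of 2-fold and 86% of 4-fold changes among 37983 models. The simulated counts had no age effect and the same dispersion for every model, and changes were placed only in models above a count limit. These rates need not hold for the real counts.

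Against a ratio of 1 to 2, in the same fit, edgeR called 24 of the 200 models, 8 above and 16 below. Among all 38795 models 43.1% were called, 16626 of them above and 106 below, since most models were at about equal levels in both crosses. As the p-values were adjusted over all of these, the adjustment was mild for the 200. AC186612.3_FG001, for example, had an edgeR p of 0.0245 and an adjusted p of 0.0551. The share of false calls among the 24 is thus not held at 0.05, here and for the models named below. Scaled to library totals alone, 3 models were above and 15 below. The median departure of the 200 from 1 to 2 was 0.00 on the log2 scale. The count of 24 became 11 on leaving out the BxM library of 10 DAP and 9 on leaving out its MxB partner. At 15 DAP leaving out either library gave 14 (BxM) or 12 (MxB), and the count was 2 in a fit of all 10 libraries from 3 DAP. Over all models tested the calls fell too, from 16732 to 11080 and 10807 for 10 DAP. They were 14117 and 13771 for 15 DAP, and 11362 in the fit of 10 libraries. A model not called may still lie away from 1 to 2.

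Far from 1 to 2 at every endosperm age, by at least 1 on the log2 scale on the same side and with at least 30 counts, lay 5 models. On the high side was GRMZM2G338406 and on the low side were GRMZM2G156261, GRMZM2G103479, GRMZM2G062936 and GRMZM2G372681. By the same measure 9.38% of all models lay on the high side and 0.0777% on the low side. At 10 and 15 DAP alone, without 7 DAP, 4 models lay on the high side and 18 on the low side, and at 7 and 10 DAP alone 5 lay on the high side. None of the 5 far at every age has a symbol in the reference table, and GRMZM2G103479 is listed there as protein coding.

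GRMZM2G338406 had 300, 104 and 61 counts in BxM at 7, 10 and 15 DAP and 159, 63 and 58 in MxB. BxM was higher at every age, with ratios of 1.91 (95% interval 1.57 to 2.32), 2.07 (1.5 to 2.87) and 1.39 (0.951 to 2.02). In kernels it had the other direction, with 0 and 14 counts in BxM at 3 and 5 DAP and 142 and 127 in MxB. It lay above 1 to 2 by 1.83 (SE 0.408, edgeR adjusted p = 0.00969), and the call was lost without BxM at 10 DAP and in the fit of 10 libraries. Among the 200 models this was the one with a higher level in BxM than in MxB at all 3 endosperm ages.

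GRMZM2G156261 had 49, 19 and 16 counts in BxM endosperm and 570, 158 and 191 in MxB. The ratios were 0.0868 (95% interval 0.0635 to 0.116), 0.151 (0.0883 to 0.243) and 0.110 (0.0618 to 0.184), so that all 3 intervals lay below 0.25. It departed from 1 to 2 by -2.14 (SE 0.400, edgeR adjusted p = 0.00597) and was called under all 13 alternatives tried for that test. Without BxM counts at 0 and 3 DAP and with 2 at 5 DAP, it stayed low in BxM over the whole course.

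GRMZM2G103479 had 66, 30 and 10 counts in BxM and 432, 303 and 98 in MxB. Its log2 ratio was the steadiest of the 5, at -2.69, -2.99 and -2.83. The departure from 1 to 2 was -1.85 (SE 0.396, edgeR adjusted p = 0.00857), and it was lost without MxB at 10 DAP and in the fit of 10 libraries. GRMZM2G062936 and GRMZM2G372681 are near-proportional and may share reads. They had 100, 31 and 5 and 100, 15 and 7 counts in BxM and 476, 260 and 114 and 411, 170 and 115 in MxB, so that they differ most at 10 DAP. Both ratios were lower at 15 than at 7 DAP, at 0.0578 against 0.212 and 0.0802 against 0.246. Both were called below 1 to 2 (edgeR adjusted p = 0.0145 and 0.0165). The call of GRMZM2G062936 was lost in the fit of 10 libraries, and that of GRMZM2G372681 there and without BxM or MxB at 10 DAP.

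**Figure D3:**
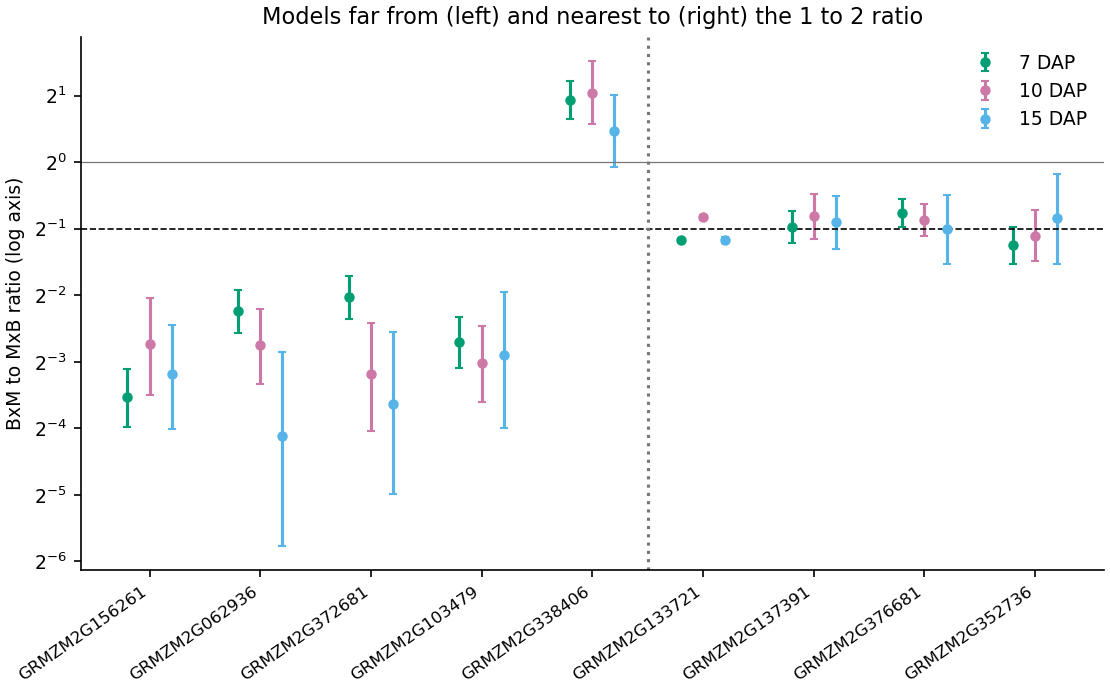
BxM to MxB ratio of CPM at 7, 10 and 15 DAP, on a log axis, for the 5 models far from 1 to 2 (left) and for 4 of the 5 models nearest to it (right); bars are 95% Clopper-Pearson intervals for counting error, the dashed line is 0.5 and the grey line 1. GRMZM2G338406 lies above 1 at each age and the other far models lie below 0.25 at each age; GRMZM5G895621, near 1 to 2 but with 0 and 1 counts at 15 DAP, is not drawn.

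Among the other models called above 1 to 2, GRMZM2G306371 differed most between ages. It had 1113, 266 and 42 counts in BxM and 534, 203 and 74 in MxB, so that BxM was higher at 7 and 10 DAP and lower at 15 DAP. It lay above 1 to 2 by 1.51 (SE 0.367, edgeR adjusted p = 0.013), lost without BxM at 7 DAP. GRMZM2G088020 was near equality throughout, with 252, 195 and 213 counts in BxM and 231, 215 and 289 in MxB (1.11, SE 0.286, edgeR adjusted p = 0.0164). GRMZM2G378167, GRMZM2G066480, GRMZM2G351232, GRMZM2G070041 and GRMZM2G083875 had average log2 ratios of 0.10, -0.01, -0.12, -0.21 and -0.24. All 7 lay closer to equality than to 1 to 2 on average. GRMZM2G083875 is near-proportional to GRMZM2G479621, which was not called (edgeR adjusted p = 0.0643).

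Of the models called below 1 to 2, GRMZM2G127521, listed as a transcribed pseudogene, had the most counts, with 1455, 505 and 124 in BxM and 3415, 2704 and 798 in MxB. Its log2 ratio went from -1.22 at 7 DAP to -2.10 and -2.28. GRMZM2G701310 had 154, 65 and 30 counts in BxM and 595, 615 and 231 in MxB, an average log2 ratio of -2.46. GRMZM2G149410 was near 1 to 2 at 7 DAP, with 88 counts in BxM and 197 in MxB, and far below it at 10 and 15 DAP, with 8 and 6 beside 275 and 156. The average log2 ratios of GRMZM2G019510, GRMZM2G463983, GRMZM2G143361 and GRMZM5G897480 were -2.90, -2.28, -2.18 and -2.11. GRMZM2G019510 and GRMZM5G897480 are near-proportional, as are GRMZM2G463983 and 2 further models called below, GRMZM2G108699 and GRMZM5G895730, which are named for that reason. Leaving aside the 5 far models and GRMZM2G306371, each of the 18 called models was called under 4 to 10 of the 13 alternatives, so that none of these calls held under every one.

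**Figure D4:**
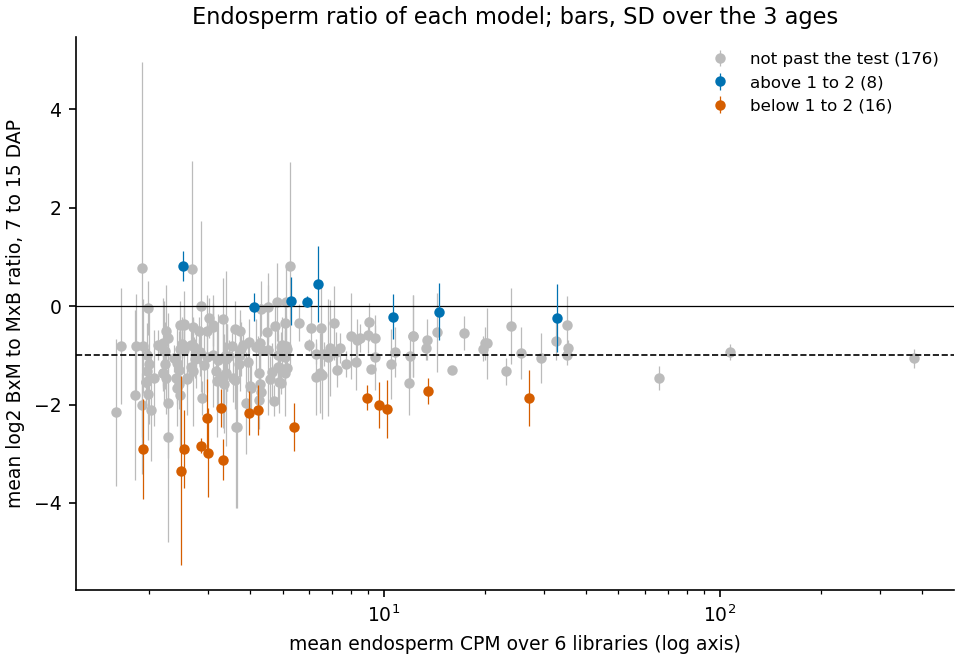
Average log2 BxM to MxB ratio over 7, 10 and 15 DAP against the mean endosperm level in CPM on a log axis, 1 point for each of the 200 models; bars are the standard deviation over the 3 ages, blue points were called above 1 to 2 (8) and orange points below (16), and the dashed line marks 1 to 2. The model with the most counts, GRMZM2G133721, lies at -1.06, near the dashed line, and models at low levels have the longest bars.

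The models nearest to 1 to 2 at all 3 ages were GRMZM2G133721, GRMZM2G137391, GRMZM2G376681, GRMZM2G352736 and GRMZM5G895621. GRMZM2G133721 was also the model with the highest endosperm level, at 379 CPM over the 6 libraries, a level not scaled for model length. It had 1, 43 and 602 counts in BxM kernels at 0, 3 and 5 DAP and 5447, 6614 and 7523 in MxB kernels. In endosperm it had 18644, 9231 and 5317 counts in BxM and 42504, 20552 and 15754 in MxB. The ratios were 0.443, 0.562 and 0.445, and at this depth all 3 counting intervals excluded 0.5, at 0.435 to 0.451, 0.549 to 0.576 and 0.431 to 0.459. Its counts were higher in 7 DAP endosperm than in 5 DAP kernels in both crosses. Its BxM share rose from kernels to endosperm (log2 change 4.23, SE 0.815, edgeR adjusted p = 0.0425), a direction largely set by the choice of the models. The pairs of libraries thus differed from 0.5 on both sides by more than counting error, while the test over ages gave a departure of -0.04 (SE 0.198, edgeR adjusted p = 0.877).

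Other models with high endosperm levels lay on both sides of 1 to 2. GRMZM2G343937 had 3918, 5393 and 1182 counts in BxM and 7683, 11334 and 3260 in MxB, with ratios of 0.515, 0.596 and 0.478. GRMZM2G042133, the model next in level, had 1562, 1493 and 1012 beside 3590, 5752 and 3985, an average log2 ratio of -1.46. For GRMZM2G084240, GRMZM2G001905, GRMZM2G347270 and GRMZM2G420870 the averages were -0.86, -0.98, -1.06 and -0.70. None of these 6 was called against 1 to 2.

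Neither named model was called. mlo6 (GRMZM2G325653) had 116, 77 and 46 counts in BxM and 220, 231 and 68 in MxB, with log2 ratios of -0.91, -1.25 and -0.16. MYBR115 (GRMZM2G049378) had 204, 85 and 3 counts in BxM and 511, 357 and 93 in MxB, with log2 ratios of -1.31, -1.74 and -4.34. Its BxM count was thus close to 0 at 15 DAP while that of MxB was 93, and GRMZM2G346995 and GRMZM2G355342 are near-proportional to it and may share its reads. Against 1 to 2 the edgeR adjusted p was 0.701 for mlo6 and 0.132 for MYBR115.

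Some models drifted between 7 and 15 DAP. Toward MxB went GRMZM2G007628, with 222, 31 and 0 counts in BxM and 418, 163 and 21 in MxB, and GRMZM2G111406, with 125, 71 and 2 beside 201, 171 and 45. Toward BxM went GRMZM2G010768, with 465, 239 and 81 beside 495, 487 and 11, and GRMZM2G025173, with 311, 80 and 32 beside 338, 187 and 4. In each case the drift rests on counts below 100 in a single pair of 15 DAP libraries. GRMZM2G006654 had 152, 34 and 15 counts in BxM and 171, 315 and 0 in MxB. It was also listed at 0 in MxB at 5 DAP, between 317 counts at 3 DAP and 171 at 7 DAP, so its zeros are not read as a change.

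Over the endosperm ages single models moved both ways, and the median shifted at each step. From 7 to 10 DAP 138 of the 200 were lower, with a median log2 change of -0.44 against -0.04 over all models tested. From 10 to 15 DAP 120 were higher, with a median of 0.31 against -0.16. The B73-mother-only models had medians of -0.53 and 0.52 at these steps. From 7 to 10 DAP edgeR called 8 of 200 lower and 1 higher, where 2.73% of all models tested were called lower and 5.97% higher. From 10 to 15 DAP 11 were lower and 18 higher, where 15.9% were lower and 9.99% higher. With library totals alone the second step had 31 lower and 4 higher, as that scaling set the median of all models at -0.79 in place of -0.16. It set the median of the 200 at -0.32 in place of 0.31. For the first step leaving out a single library gave 4 to 13 lower and 1 to 5 higher. The second step had 8 to 17 lower in this way, and 5 and 9 higher without BxM and MxB at 10 DAP and 10 and 8 higher without BxM and MxB at 15 DAP.

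GRMZM5G895621 fell at both steps, from 781 and 1508 counts at 7 DAP to 56 and 120 at 10 DAP and 0 and 1 at 15 DAP in BxM and MxB (edgeR adjusted p = 0.00393 and 0.00121). GRMZM2G475905, chosen after its values were seen, had a like course, from 626 and 1671 to 95 and 147 and to 0 in both (edgeR adjusted p = 0.0146 and 0.0016). The call of its first step was lost without MxB at 7 DAP. GRMZM2G083875 rose from 336 and 828 counts at 10 DAP to 1653 and 2404 at 15 DAP, in libraries with lower totals (log2 change 3.26, SE 0.344, edgeR adjusted p = 0.000676), and GRMZM2G479621 rose with it. GRMZM2G378167 rose from 95 and 144 to 256 and 352 counts (2.74, SE 0.41, edgeR adjusted p = 0.00264). In each of these models both crosses moved the same way, and the second-step calls held under all 13 alternatives.

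GRMZM2G359298 stood apart from the other models. Its counts at 0, 3, 5, 7, 10 and 15 DAP were 3, 140, 334, 2, 123 and 16 in BxM and 310, 587, 299, 3, 855 and 74 in MxB. It was thus present in kernels of both crosses after pollination, nearly absent from 7 DAP endosperm, and back at 10 DAP. It rose from 7 to 10 DAP by 7.43 (SE 0.706, edgeR adjusted p = 0.00199), called under all 13 alternatives, and was the single model of the 200 called higher at that step. The summed ovule markers were also highest at 10 DAP among the endosperm ages, at 11.9 and 10.3 CPM at 7 DAP, 148 and 250 CPM at 10 DAP and 2.53 and 2.47 CPM at 15 DAP, but stood higher at 7 than at 15 DAP, the reverse of this model. Their part in this model's counts was not tested. Its change of ratio between kernels and endosperm was -1.04, the one value below 0 among the 200 (edgeR adjusted p = 0.80).

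**Figure D5:**
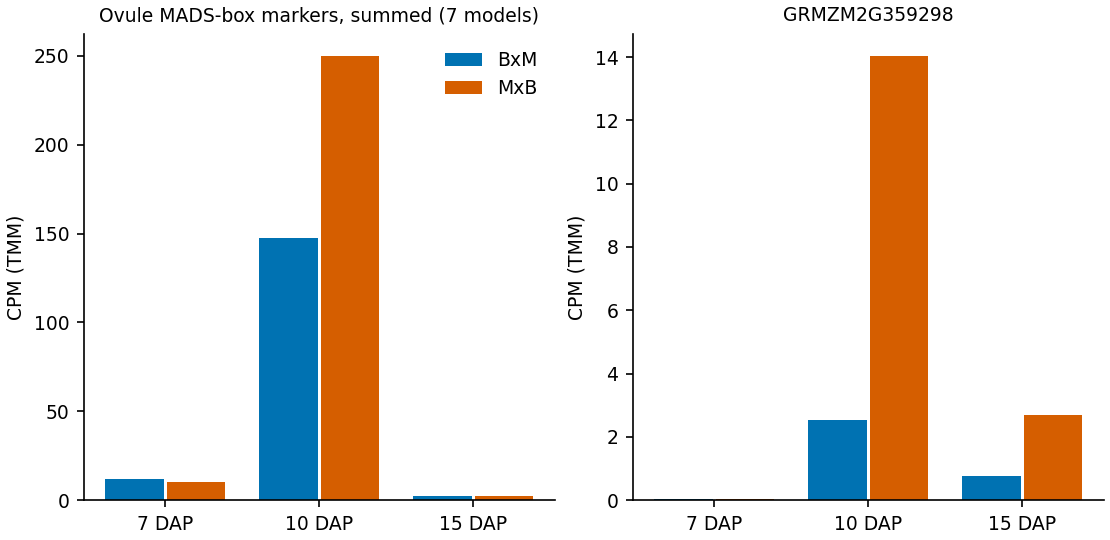
Summed level of 7 ovule MADS-box marker models (left) and level of GRMZM2G359298 (right) in the 6 endosperm libraries, in CPM, 1 bar for each library with BxM in blue and MxB in orange. Both are highest at 10 DAP and higher there in MxB than in BxM, with marker sums of 148 and 250 CPM. The higher marker sum in MxB comes mostly from zag2 and zag3, while zag1 and the zmm2 model GRMZM2G359952 are near equal in the crosses.

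Known imprinted genes of maize endosperm gave no call between the crosses in the same fit. Of fie1, fie2, mez1, nrp1 and meg1, none is among the 200 models and none was called by edgeR, the smallest adjusted p being 0.179. The listed genes mee1, tar1, peg1 and ded1 were matched to no model. As the counts do not separate alleles, this test cannot show imprinting or its absence. The maternally expressed Polycomb gene mez1 stood at 92.2, 51.2 and 70.0 CPM in BxM and 53.1, 32.5 and 37.2 CPM in MxB, higher in BxM at each age, and had that adjusted p.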

How the data were processed

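RNA of 12 libraries was sequenced. The deposited tables hold raw read counts over 108342 gene models. Per the submitters' processing notes the authors used Bowtie and bedtools, with no versions. Neither the genome build nor the annotation is given in the sources used here. Per the file headers the count columns refer to B73, so reads of Mo17 alleles may be counted less completely. The deposited normalised values are constant multiples of the counts and were not used. Library preparation is described without a word on strand, so overlapping and antisense models cannot be told apart.

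R 4.3.3 and edgeR 4.0.16 were used for the tests: models were filtered with filterByExpr and scaled with TMM factors, glmQLFit and glmQLFTest were run on the counts, and p-values were adjusted after Benjamini-Hochberg over all models tested, with a threshold of 0.05. The endosperm fit of 6 libraries had age as a term and 2 residual degrees of freedom, the kernel fit of 4 had 1, and the joint fit of 10 had 3. Without replicates of a cross at 1 age, p-values measure how unequally the crosses behave across ages, not the spread between plants. The 1 to 2 ratio was tested by an offset of 2 for MxB. Standard errors (SE) were derived from the F statistic. Levels and ratios are CPM with TMM factors over 12 libraries, and log2 ratios had 0.5 counts added. Of all models, 21 abundant ones listed at 0 at 15 DAP were left out of fits with that age; none is among the 200. Alternatives were RLE, upper quartile and total scaling, other filters, DESeq2 1.42.0, a joint fit, leaving out each library and, both chosen after seeing the data, edgeR's bias-adjusted dispersion and counting near-proportional models once. Tested on simulated counts, the kernel test (40606 models) recovered 44% of 4-fold and 100% of 16-fold changes. The test of kernels against endosperm (42169 models) recovered 20% and 96%. These counts too had no age effect and the same dispersion for every model, so the rates need not hold for the real fits.

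The models and marker lists were chosen with earlier results of these data known. Named models are those with a known symbol, those far from 1 to 2 (10 on each side at most), the 5 nearest to it, the 10 highest in endosperm, the 10 largest changes each way past a cross test, the 3 largest drifts each way, and those at the limits of the choice.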

Additional observations from a re-analysis of the deposited data

Results flagged for a closer look

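The cross ratio of 131 of the 200 Mo17-mother-only models differed between kernels of 3 and 5 DAP and endosperm of 7 to 15 DAP by an edgeR test of the difference itself. All 131 had the higher BxM share in endosperm, where 0.823% of all 44603 models tested were called in that direction. The number was 54 without BxM and 76 without MxB at 15 DAP. Over all models the calls in either direction went from 795 to 264 and 362 in these fits. The direction was largely set by the choice of the models, and 147 of the 217 B73-mother-only models were called in the opposite one.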

How the results depend on the processing

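The choice of models gave 321 with an endosperm mean of at least 50 counts and 98 with at least 200. For the crosses in endosperm, 0 called by edgeR became 3 with library totals, 49 with no filter, 56 with DESeq2 and 7 with the bias-adjusted dispersion, and 0 to 43 without 1 library. Over all models tested, library totals, no filter, DESeq2 and the bias-adjusted dispersion called 47, 924, 1073 and 72. Leaving out 1 library gave 11 to 1457 calls over all models. Calls against 1 to 2 went from 24 to 2 in the joint fit and to between 9 and 30 without 1 library. Over all models they went from 16732 to 11362 and to between 10807 and 14783. Kernel calls were 105 with library totals, and 898 in place of 3139 over all models in either direction. Calls of a changed ratio ran from 54 to 165 without 1 library. From 7 to 10 DAP, lower and higher calls were 18 and 4 with no filter, 26 and 4 with DESeq2, 13 and 3 with the bias-adjusted dispersion, and 4 to 13 and 1 to 5 without 1 library. From 10 to 15 DAP, they were 31 and 4 with library totals, 33 higher with DESeq2, and 8 to 17 and 5 to 27 without 1 library. The median log2 ratio was -9.15 at 3 DAP and -1.30 at 15 DAP with library totals, and -6.14 at 5 DAP with RLE factors; the average over endosperm ages moved by less than the spread between ages under each alternative. Of the models far from 1 to 2, RLE factors gave 2 on the high side. Distances of 0.5 and 1.5 gave 5 and 0 high and 13 and 2 low, and leaving out 7 DAP gave 4 and 18. Leaving out an age gave 1 to 5 high and 4 to 18 low. GRMZM2G066480 averaged 0.0193 with RLE factors and GRMZM2G088020 -0.0049 with library totals, each on the other side of equality. The cause was not tested. Low counts at 15 DAP limit single ratios, and 1 library per cross and age limits every test. The endosperm fit pairs the crosses by age; no other pairing exists, as replicate numbers go no higher than 1.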
